A study of Homo sapiens with 16 samples.

Results

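The 45 genes described here encode proteins that take a cell into and through mitosis, or transcription factors that drive their expression. They were chosen by name, as genes of the G2/M transition, the kinetochore, the spindle checkpoint, the spindle and cytokinesis with the kinesin motors left out, and all 45 were found among the 12676 genes of the count table. mRNA was sequenced from H1299 cells, an established human non-small cell lung cancer line, in 2 libraries infected with a lentivirus carrying a non-targeting shRNA (shNT, titled shCtrl in the labels) and 2 infected with one against YEATS2 (shYEATS2). YEATS2 is a subunit of the ATAC histone acetyltransferase complex and binds acetylated histone H3 through its YEATS domain, and the comparison asks which transcripts change when it is depleted. Both groups carried a pLKO vector, were exposed to polybrene at 8 µg/ml, received puromycin at 2 µg/ml after 48 h and were selected for 4 to 7 days by the labels, where the study's methods state a shorter time. The cells were therefore pools of infected cells and not clones, and the knockdown rests on a single hairpin, which the study calls shY2-1 and the labels do not name. The study also reports RNA-seq with another hairpin that depleted YEATS2 in part. Some but not all of the genes it lowered were shared with shY2-1, and its libraries are not in the comparison described here. The labels do not say whether libraries of a group came from separate cultures, and the study describes them as independent biological replicates.

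Entry into mitosis is set by Cdk1 bound to cyclin B, which is held inactive by the Wee1 kinase and released by the Cdc25 phosphatases. Kinetochores then attach the chromosomes to spindle microtubules, and the spindle assembly checkpoint holds back the anaphase-promoting complex (APC/C) until every kinetochore is attached. APC/C with its activator Cdc20 then frees separase, which cuts cohesin, and the cell divides at a cleavage furrow. Transcripts of most of these genes are low in G1 and high in G2 and M phase. Their promoters are bound by MuvB complexes, which carry B-MYB and FOXM1 when the genes are on and p130 and E2F4 when they are off, and are known for a short element called the cell cycle genes homology region (CHR, TTTGAA or TTCGAA) a short way downstream of CCAAT boxes, which NF-Y binds.

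The element can be read in the promoters of the genes themselves. RefSeq promoters of 300 bases, from 250 before to 50 after the start site on GRCh38.p14, were at hand for 35 of the 45 genes. The windows that follow were chosen to show the CHR at its usual place near the start site and the few bases around it in genes of different roles. Each runs 5′ to 3′ on the strand of the gene, capitals mark the CHR, and the number is the position of its first base relative to the start site.
CCNB2 (cyclin B2, chr15:59105105-59105134, plus strand, -29): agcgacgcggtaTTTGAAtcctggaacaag
PLK1 (Polo-like kinase 1, chr16:23678848-23678877, plus strand, -29): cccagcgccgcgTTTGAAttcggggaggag
BUB1B (checkpoint protein BubR1, chr15:40161034-40161063, plus strand, -23): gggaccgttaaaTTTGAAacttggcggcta
CENPA (centromeric histone H3, chr2:26786026-26786055, plus strand, -18): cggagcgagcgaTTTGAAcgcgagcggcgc
CDCA8 (Borealin, chr1:37692481-37692510, plus strand, -23): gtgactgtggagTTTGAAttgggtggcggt
CDC20 (activator of APC/C, chr1:43358904-43358933, plus strand, -65): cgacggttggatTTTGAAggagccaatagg
ESPL1 (separase, chr12:53268256-53268285, plus strand, -31): cagccgcggataTTTGAAaggagggtctgg
PRC1 (spindle midzone protein, chr15:90994538-90994567, minus strand, -20): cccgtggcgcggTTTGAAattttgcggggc

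In 3 genes the windows held a pair of elements back to back, the first of them read on the other strand (TTCAAA) in ANLN and NDC80, and these are shown for that reason, with the position of the first element.
ANLN (anillin, chr7:36389824-36389853, plus strand, -26): tcggcgctgaaaTTCAAATTTGAAcggctg
HMMR (spindle protein RHAMM, chr5:163460592-163460621, plus strand, -28): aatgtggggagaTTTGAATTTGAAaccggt
NDC80 (kinetochore protein, chr18:2571542-2571571, plus strand, -3): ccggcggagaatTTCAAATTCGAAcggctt
CCNB1, the gene of cyclin B1, held no CHR in its 300 bases, which says only that these letters are not in that window, and its pair of CCAAT boxes is shown in capitals instead, with their first positions.
CCNB1 (chr5:69167051-69167079, plus strand, -87): gaccggcagccgCCAATgggaagggagtg
CCNB1 (chr5:69167083-69167111, plus strand, -55): gccacgaacaggCCAATaaggagggagca

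Read counts per gene were the measurement, with 34718921 to 39417787 reads in listed genes per library, and every listed gene had over 100 reads in at least 1 library. YEATS2 itself was at 4482 and 4104 scaled reads in the shNT libraries and at 665 and 673 in the shYEATS2 libraries, a log2 fold change of -2.68 ± 0.10 (SE, n = 2 libraries per group, edgeR quasi-likelihood test, adjusted p = 0.000583). A scaled read is a read count brought to the mean library size by TMM, and a log2 fold change is shYEATS2 over shNT throughout. Of the epithelial and mesenchymal markers examined, KRT7, at 90.4 and 60.8 scaled reads in the shNT against 236 and 207 in the shYEATS2 libraries, was called higher. KRT18 went from 20088 and 18402 to 13903 and 7983 (-0.81, adjusted p = 0.0283) and VIM from 111115 and 114660 to 96178 and 78728 (-0.37, adjusted p = 0.0390), and KRT8 was at 10181 and 10697 against 14516 and 11319 (0.31, adjusted p = 0.0958), none of them called. KRT19, EPCAM, CDH1, the other 5 mesenchymal markers and all 5 blood cell markers were not among the listed genes. The part of these differences in the results was not tested.

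Transcripts of the mitotic genes were lower after YEATS2 knockdown almost throughout. The test called 41 of the 45 lower and 0 higher at an adjusted p under 0.01, against 12.5% of all genes tested that were called lower (1581 genes) and 12.9% called higher (1630 genes). The 4 genes without a call were CDC25A, CDC25B, WEE1 and CKAP5, whose estimates were also below 0. The median log2 fold change of the 45 was -1.24, against -0.0019 for all genes, and 35 of the 45 lay below -1, where 5.03% of all genes lay. At the median, 42.5% of the control level was left, with a range from 23.2% in ECT2 to 91.2% in WEE1. In 43 genes both shYEATS2 libraries lay below both shNT libraries, as they did in 39.8% of all genes tested, and the exceptions were CDC25A and WEE1. In bulk RNA, fewer cells in G2 and M phase and less of each transcript per cell cannot be told apart. The study reports a G1 arrest after YEATS2 knockdown by flow cytometry, and its part in these values was not tested.

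**Figure D1:**
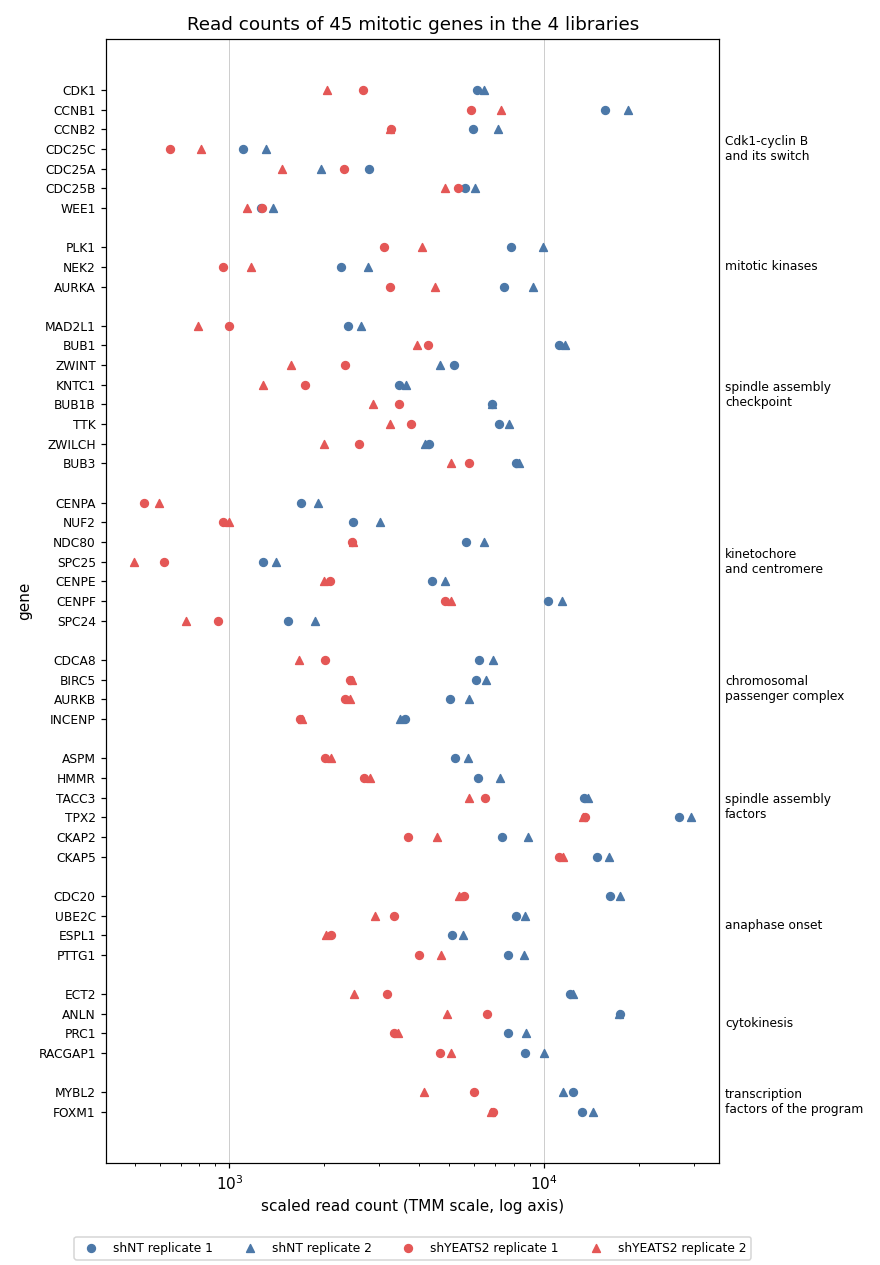
Scaled read counts (horizontal log axis, TMM scale) of the 45 mitotic genes (vertical axis, grouped by role), with 1 point per library. The red shYEATS2 points lie to the left of the blue shNT points in 43 genes, and the points of CDC25A and WEE1 overlap.

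The number of calls over the whole table depended on the libraries and the scaling. With shNT replicate 1 left out 850 genes were called lower and 775 higher, with shNT replicate 2 left out 919 and 882, and with shYEATS2 replicate 2 left out 1058 and 992. The mitotic genes called lower numbered 39, 39 and 40 in those fits, beside 6.71%, 7.25% and 8.36% of all genes. Scaling by total counts in place of TMM moved the median of all genes to 0.12 and gave 1166 genes called lower and 2363 higher, with a median of -1.12 for the mitotic genes, of which 40 were called lower beside 9.20% of all genes. Those called higher among the mitotic genes numbered 0 under every setting tried.

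The switch that starts mitosis was split. The kinase subunit and both B-type cyclins fell, and the phosphatases and the kinase that set its activity moved less, so that 4 of the 7 genes were called lower. CDK1 (chr10:62538089-62554610, GRCh37), the catalytic subunit, was at 6143 and 6426 scaled reads in the shNT libraries and at 2668 and 2048 in the shYEATS2 libraries. Its log2 fold change of -1.41 ± 0.14 (SE, adjusted p = 0.00114) was the largest fall of the 7, and the groups were far apart. CCNB1 (chr5:68462962-68474072), the cyclin B1 gene and the most abundant of the group, went from 15580 and 18473 scaled reads to 5844 and 7277. The change was -1.38 ± 0.14 (adjusted p = 0.00123), with replicate 2 the higher library in both groups. CCNB2, cyclin B2, changed by -1.01 ± 0.12 (adjusted p = 0.00148).

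CDC25C, a phosphatase that activates Cdk1 at mitotic entry, had 1104 and 1303 scaled reads under shNT and 649 and 813 under shYEATS2. The groups did not overlap, but its call (-0.72 ± 0.15, adjusted p = 0.00887) was the closest to the threshold of the 41. It was lost without shNT replicate 1 (adjusted p = 0.0103), without shNT replicate 2 (0.0414), without shYEATS2 replicate 1 (0.0165) and with total counts (0.0171), all from edgeR. CDC25A, which acts earlier, at entry into S phase, as well as in mitosis, was read at 2771 and 1961 in the shNT libraries and at 2308 and 1469 in the shYEATS2 libraries. Its replicates differed more than those of any other of the 45 in both groups, the groups overlapped, and its change was -0.33 ± 0.24 (adjusted p = 0.290). CDC25B had 5613 and 6031 scaled reads against 5311 and 4841, which did not overlap, with a change of -0.20 ± 0.10 (adjusted p = 0.138). WEE1 (chr11:9595217-9615004), an inhibitory kinase of Cdk1, stood at 1257 and 1380 against 1267 and 1137. These 4 values overlapped, and the change of -0.13 ± 0.11 (adjusted p = 0.344) was the smallest of the 45.

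All 3 mitotic kinases fell, and their median change was -1.24. PLK1 (chr16:23688977-23701688), the Polo-like kinase that acts on centrosomes, kinetochores and mitotic entry, was at 7877 and 9929 scaled reads in the shNT libraries and at 3099 and 4092 in the shYEATS2 libraries, a change of -1.31 ± 0.17 (adjusted p = 0.00196). AURKA, the kinase of spindle poles, was at 7451 and 9226 against 3233 and 4512 (-1.11 ± 0.18, adjusted p = 0.00390). In both genes the groups stood apart, although replicate 2 exceeded replicate 1 on either side. NEK2, a centrosome kinase that separates the spindle poles, changed by -1.24 ± 0.14 (adjusted p = 0.00152).

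Of the spindle assembly checkpoint genes among the 45, 8 of 8 were called lower, with a median of -1.18. BUB1 (chr2:111395105-111435640), a kinetochore kinase that recruits the other checkpoint proteins, was its most abundant member, with 11157 and 11647 scaled reads under shNT and 4294 and 3938 under shYEATS2. It changed by -1.47 ± 0.10 (adjusted p = 0.000793). MAD2L1 (chr4:120976778-120988013), the Mad2 protein that binds and inhibits Cdc20, had the largest fall, from 2383 and 2611 to 996 and 793 scaled reads (-1.48 ± 0.13, adjusted p = 0.00100). The intervals of 1 SE around these changes overlap, so their order is not set by these libraries.

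BUB3, which carries Bub1 and BubR1 to the kinetochore, moved least in the checkpoint, from 8174 and 8315 to 5795 and 5047 scaled reads. The groups did not overlap and 65.8% of the control level was left (-0.61 ± 0.10, adjusted p = 0.00461). Its call was lost without shNT replicate 1 (adjusted p = 0.0184), without shNT replicate 2 (0.0212) and without shYEATS2 replicate 2 (0.0105), again from edgeR. Between these genes lay TTK, the Mps1 kinase at the top of the checkpoint (-1.09 ± 0.11), and BUB1B, the BubR1 component of the inhibitor of APC/C (-1.11 ± 0.12). The Rod-Zw10-Zwilch complex and its receptor, which bring Mad1 and Mad2 and the motor dynein to kinetochores, were represented by KNTC1, the Rod protein (-1.24 ± 0.15), ZWILCH (-0.89 ± 0.13) and ZWINT (-1.34 ± 0.18). Some checkpoint genes outside the 45 were not called, among them ZW10 of the same complex (-0.32, adjusted p = 0.0388) and MAD1L1, the Mad1 protein (-0.43, adjusted p = 0.0159), which were named after their values were seen.

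Among the kinetochore and centromere genes 7 of 7 were called lower, with a median of -1.27. CENPA (chr2:26987157-27023935), the histone H3 variant that marks the centromere, had the largest fall, from 1690 and 1911 scaled reads in the shNT libraries to 534 and 596 in the shYEATS2 libraries (-1.67 ± 0.12, adjusted p = 0.000793). CENPF, a large protein of the outer kinetochore and the most counted of the 7, went from 10263 and 11425 to 4849 and 5063 (-1.13 ± 0.10, adjusted p = 0.000992). In both the groups were well separated.

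The NDC80 complex, which holds the microtubule end, fell in all of its 4 subunits. SPC24 had the smallest change, from 1533 and 1872 to 920 and 726 scaled reads (-1.05 ± 0.16, adjusted p = 0.00292), without overlap. NUF2 changed by -1.49 ± 0.12, NDC80 by -1.30 ± 0.10 and SPC25 by -1.27 ± 0.14. CENPE, a kinesin-like motor that was kept among the 45 and aligns chromosomes and captures microtubules at the kinetochore, changed by -1.18 ± 0.10.

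The chromosomal passenger complex corrects wrong attachments and later guides cytokinesis, and its 4 subunits all fell, with a median of -1.28. CDCA8 (chr1:38158153-38175391), Borealin, was at 6219 and 6881 scaled reads in the shNT libraries and at 2013 and 1667 in the shYEATS2 libraries. With 28.1% of the control level left (-1.83 ± 0.13, adjusted p = 0.000793) it was second only to ECT2 among the 45. BIRC5, Survivin, which docks the complex on centromeres, was at 6087 and 6535 against 2415 and 2459 (-1.37 ± 0.09, adjusted p = 0.000793). INCENP, the scaffold, had the smallest change of the 4, from 3623 and 3488 to 1677 and 1698 (-1.07 ± 0.09, adjusted p = 0.00093). Libraries of a group differed little in BIRC5 and INCENP. The shYEATS2 libraries of CDCA8 lay further apart, with a log2 ratio of replicate 2 over replicate 1 of -0.27. In CDCA8, BIRC5 and INCENP the groups were far apart. AURKB, the kinase of the complex, changed by -1.19 ± 0.11.

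Of the 6 spindle assembly factors 5 were called lower, and the median was -1.11. TPX2 (chr20:30327074-30389608), which activates Aurora A and nucleates microtubules around chromosomes, had the highest read count of all 45 genes. It went from 26840 and 29337 scaled reads in the shNT libraries to 13498 and 13311 in the shYEATS2 libraries (-1.07 ± 0.10, adjusted p = 0.00100). ASPM, a protein of spindle poles, had the largest fall of the 6, from 5218 and 5739 to 2009 and 2102 (-1.41 ± 0.10, adjusted p = 0.000793). CKAP5 (chr11:46764598-46867859), the microtubule polymerase ch-TOG, was at 14722 and 16124 scaled reads against 11181 and 11509. Its groups did not overlap and its change of -0.44 ± 0.10 missed the threshold narrowly (adjusted p = 0.0103), while DESeq2 (adjusted p = 0.000801) and edgeR's exactTest (adjusted p = 0.00105) called it lower, as they did 42 of the 45 genes and 17.3% and 19.7% of all genes. TACC3, which works with ch-TOG on kinetochore fibres, changed by -1.15 ± 0.10, HMMR by -1.30 ± 0.11 and CKAP2, a microtubule stabiliser, by -0.97 ± 0.14.

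The 4 genes of anaphase onset all fell, with a median of -1.40. CDC20 (chr1:43824652-43828874) was both the most abundant and the most changed of them, at 16205 and 17406 scaled reads in the shNT libraries and at 5555 and 5353 in the shYEATS2 libraries (-1.62 ± 0.10, adjusted p = 0.000793). PTTG1, securin, which inhibits separase until anaphase, had the smallest change, from 7664 and 8659 to 4007 and 4697 (-0.91 ± 0.12, adjusted p = 0.00202). Reads of PTTG1 can be shared with near-identical copies of the gene, so its level is less certain than the others. UBE2C, the ubiquitin-conjugating enzyme that works with APC/C, changed by -1.44 ± 0.11 and ESPL1, separase, by -1.37 ± 0.10.

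Cytokinesis held the largest change of all and 4 of 4 genes were called lower, with a median of -1.44. ECT2 (chr3:172468472-172539264), the exchange factor that activates RhoA at the cleavage furrow, was at 12095 and 12366 scaled reads in the shNT libraries and at 3170 and 2493 in the shYEATS2 libraries. Its change of -2.11 ± 0.13 (adjusted p = 0.000793) left 23.2% of the control level. ANLN (chr7:36429430-36493400), anillin, the scaffold of the contractile ring, was the most counted of the 4, at 17448 and 17331 against 6569 and 4914 (-1.60 ± 0.15, adjusted p = 0.00104). RACGAP1, the partner that recruits and activates Ect2 at the spindle midzone, changed least, from 8673 and 10012 to 4688 and 5062 (-0.94 ± 0.11, adjusted p = 0.00153). The groups were separate in all of these. In ECT2 and ANLN the shNT libraries were nearly equal, and the shYEATS2 libraries lay further apart (log2 ratios of replicate 2 over replicate 1 of -0.35 and -0.42). PRC1, which bundles the midzone microtubules, changed by -1.28 ± 0.10.

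Both transcription factors of the program fell as well. FOXM1 (chr12:2966846-2986340), an activator of G2/M genes, was at 13202 and 14264 scaled reads in the shNT libraries and at 6864 and 6796 in the shYEATS2 libraries (-1.01 ± 0.09, adjusted p = 0.00105). MYBL2 (chr20:42295659-42345135), B-MYB, which joins MuvB at the same promoters, was at 12396 and 11480 against 5999 and 4147 (-1.24 ± 0.17, adjusted p = 0.00251). Neither gene had overlapping groups, and the shYEATS2 libraries of MYBL2 lay further apart than those of FOXM1.

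**Figure D2:**
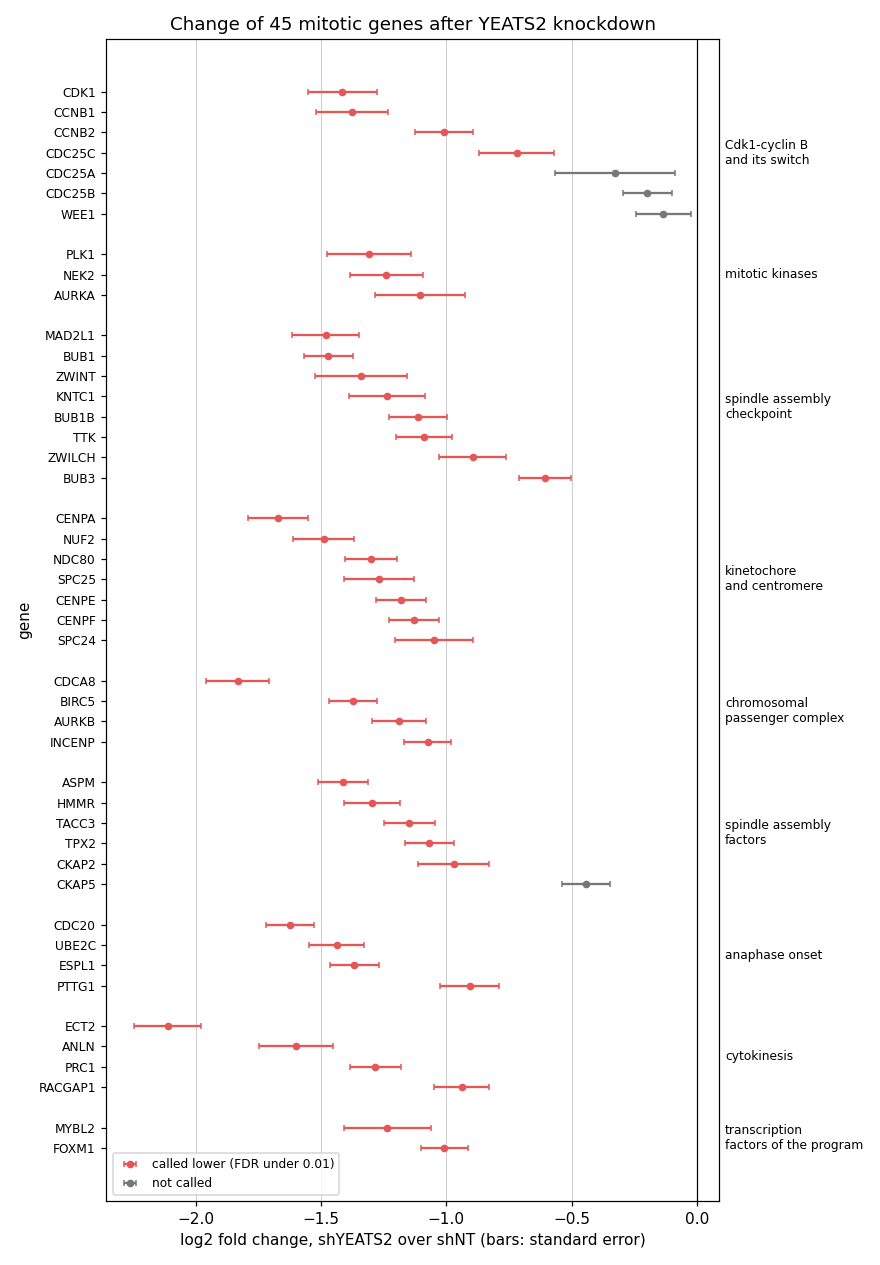
Log2 fold change of shYEATS2 over shNT (horizontal axis) of each of the 45 mitotic genes (vertical axis, grouped by role), with bars of 1 standard error from the edgeR fit. All points lie below 0, from -2.11 in ECT2 to -0.13 in WEE1, and the 4 grey genes were not called.

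The mitotic genes were among the more abundant transcripts of these cells. Per kilobase of exon, their median level was 1630 scaled reads in the shNT libraries against 220 for the 12465 genes with an annotated length. CDC20 was highest at 8353, followed by TPX2 at 7792, CCNB1 at 6998 and UBE2C at 6562, and WEE1 was lowest at 142.5. In the shYEATS2 libraries the median level was 693 scaled reads per kilobase, still above the 221 of all genes, and TPX2 took the first place at 3718. On this scale PLK1 stood at 1870 in the shNT libraries and AURKA at 2848, and BUB1 and BUB3 at 1809 and 1009.

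Libraries of a group differed by less than the fall in most of these genes. In the shNT libraries 39 of the 45 were higher in replicate 2, with a median log2 ratio of replicate 2 over replicate 1 of 0.13, against 0.00045 for all genes. In the shYEATS2 libraries 19 were higher and 26 lower in replicate 2, with a median of -0.05, against -0.0041 for all genes. In 18 genes replicate 2 was the higher library of both groups, among them AURKA (log2 ratios of 0.31 and 0.48), PLK1 (0.33 and 0.40), CCNB1, CDC25C, NEK2, CKAP2 and PTTG1. CDC25A (-0.50 and -0.65), ZWINT, ZWILCH, ANLN and MYBL2 were lower in replicate 2 of both groups. Set against the shNT mean, the median log2 ratio of the mitotic genes was -1.15 in shYEATS2 replicate 1 and -1.23 in replicate 2, so the fall was of similar size in either library.

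**Figure D3:**
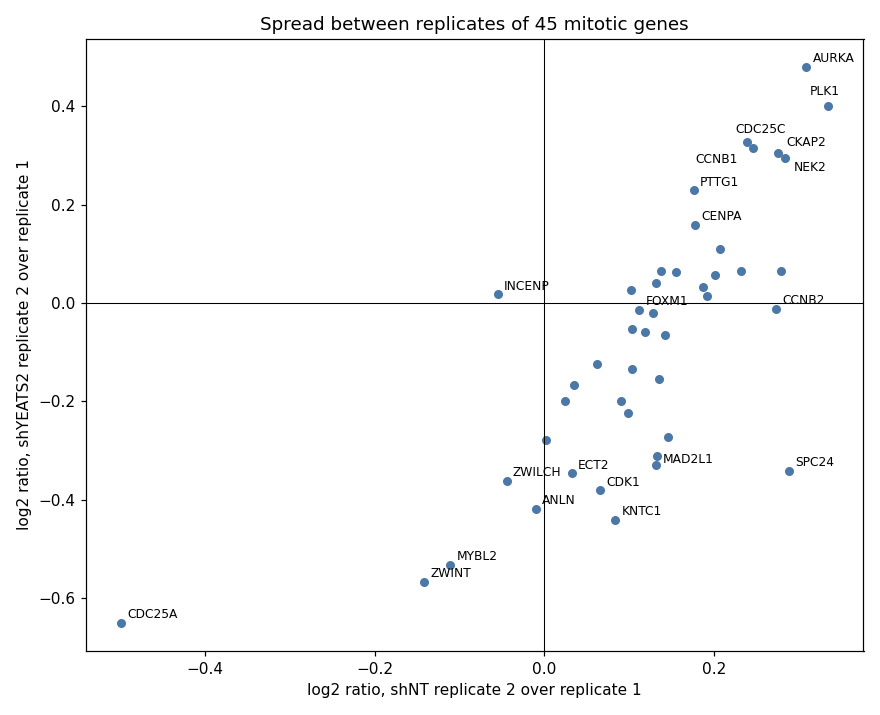
Log2 ratio of replicate 2 over replicate 1 in the shNT libraries (horizontal axis) and in the shYEATS2 libraries (vertical axis), with 1 point per mitotic gene. Most points lie right of 0, since 39 of 45 genes were higher in shNT replicate 2, and AURKA and PLK1 lie at the upper right and CDC25A at the lower left.

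The promoters of the mitotic genes held the CHR and the CCAAT box more often than promoters at large. A CHR, on either strand, was found in 22 of the 35 promoters (62.9%), against 10.6% of the promoters of 9085 genes tested and 16.6% of all 27305 promoters in the RefSeq table. In 19 of the 22 a CHR lay within 50 bases of the start site, as in the windows of CCNB2, PLK1 and CDCA8 shown earlier. CCAAT, on either strand, occurred in 25 of 35 (71.4%), against 37.1% of genes tested and 35.7% of all promoters, and 18 of 35 (51.4%) held it at least 2 times, against 14.1% and 11.3%. Both elements were present in 18 genes and neither in 6. The E2F words TTTGGCGC, TTTCGCGC, TTTCCCGC and TTTGCCGC were rarer, in CDK1, CDC25A and CENPA (8.57%), against 5.56% of genes tested and 3.33% of all promoters. TTCGAA reads the same on both strands. A match of letters, or its absence from these windows, is a description and does not show whether a factor binds.

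Within the mitotic genes, those with a CHR had a median log2 fold change of -1.35, with 21 of 22 called lower, and those without one a median of -1.05, with 11 of 13 called lower. The exception with a CHR was CKAP5, and those without were CDC25A and CDC25B. Here, without a CHR means only that these letters were not in the 300 bases read, as stated for CCNB1. Among the other genes tested, the medians with and without the element lay closer together, a difference that was not tested. Only the mitotic genes described so far were left out of this set. Further genes of mitosis, such as the other G2/M genes and the kinesins described below, were not removed from it. Their part in the shares called lower that follow was not tested. Of 944 other genes tested with a CHR, 188 (19.9%) were called lower and their median was -0.11, against 967 of 8109 (11.9%) and -0.0042 without it. With a CHR and at least 2 CCAAT boxes, 49 of 135 (36.3%) were called lower, with a median of -0.29. Other genes called lower held a CHR in 16.3% of 1155 promoters.

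**Figure D4:**
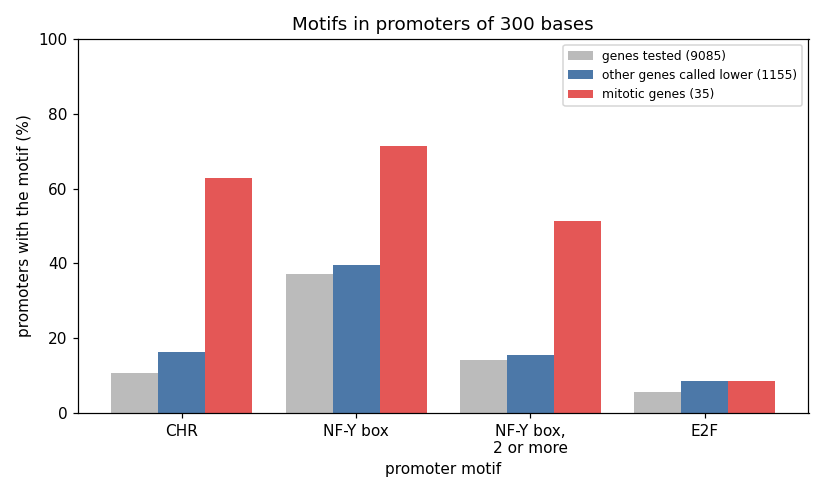
Share of RefSeq promoters (vertical axis, percent) that hold each motif (horizontal axis) in 9085 genes tested, 1155 other genes called lower and 35 of the mitotic genes. The red bars of the mitotic genes stand at 62.9% for the CHR and 71.4% for the NF-Y box, CCAAT, and at 8.57% for E2F words, beside 10.6%, 37.1% and 5.56% in genes tested.

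The fall was not shared evenly by the other genes of mitosis. In 7 further lists of 122 genes, 67 (54.9%) were called lower and 2 higher, with a median of -0.65. Genes with a known peak in G2 and M phase moved like the 45, with 30 of 31 called lower and a median of -1.21. CDCA2, which targets protein phosphatase 1 to chromatin (-1.76 ± 0.10), and FAM83D, which brings casein kinase 1 to the spindle (-1.67 ± 0.10), fell most, and the one gene without a call, named after its value was seen, was FAM64A (-0.56, adjusted p = 0.0515). Other outer kinetochore and checkpoint factors were called lower in 10 of 18, with a median of -0.61. DSN1 of the Mis12 complex (-1.70 ± 0.19) and SGO2, which protects centromeric cohesin (-1.42 ± 0.09) led them.

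The constitutive centromere network and the factors that load CENP-A were called lower in 14 of 20 genes, with a median of -0.84, and their largest falls were in CENPI (-1.47 ± 0.16) and CENPS (-1.32 ± 0.21). Centriole duplication genes were called lower in 9 of 12, with a median of -0.63. The count was 5 with total counts and also without shNT replicate 1, without shNT replicate 2 or without shYEATS2 replicate 2. PLK4, the kinase that starts duplication, changed by -1.46 ± 0.19 and CENPJ by -1.21 ± 0.13.

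The remaining lists had smaller median changes. Subunits and regulators of APC/C were called lower in 2 of 18 and higher in 1, a share of 11.1% lower beside the 12.5% of all genes, with a median of -0.24. The number called lower depended on the test. It was 5 in DESeq2 and 7 in exactTest, where 17.3% and 19.7% of all genes were called lower. At an adjusted p under 0.05 it was 8 of 18, beside 3011 of all 12676 genes. The falls were FBXO5, the inhibitor Emi1 (-1.12 ± 0.11), and CDC27 (-0.68 ± 0.10), and the rise was ANAPC16 (0.68 ± 0.10). The falls numbered 1 without shNT replicate 2 and 4 without shYEATS2 replicate 1, and the rises 0 without shNT replicate 1 or 2 and 2 without shYEATS2 replicate 1. Of 16 Greatwall and mitotic exit phosphatase genes 1 was called lower and 1 higher, with a median of -0.13. The share called lower was 6.25%, beside the 12.5% of all genes. The fall was MASTL, the Greatwall kinase (-0.69 ± 0.11), and the rise was CDC14B (0.62 ± 0.13). Neither was called without shNT replicate 1 or without shNT replicate 2, and CDC14B was also not called without shYEATS2 replicate 2. At an adjusted p under 0.05, 5 of the 16 were lower and 2 higher, beside 3011 and 3093 of all 12676 genes. The exactTest called 2 lower, beside 19.7% of all genes. LIN9 (-0.80 ± 0.11) was the one call among 7 genes of the MuvB core and its partners, with a median of -0.21. That is a share of 14.3% lower beside the 12.5% of all genes. Those called lower numbered 2 with exactTest, beside 19.7% of all genes. They also numbered 2 at an adjusted p under 0.05, beside 3011 of all 12676 genes. Genes of this list called higher numbered 0, and 1 with DESeq2, exactTest, total counts, an adjusted p under 0.05 or shYEATS2 replicate 1 left out.

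**Figure D5:**
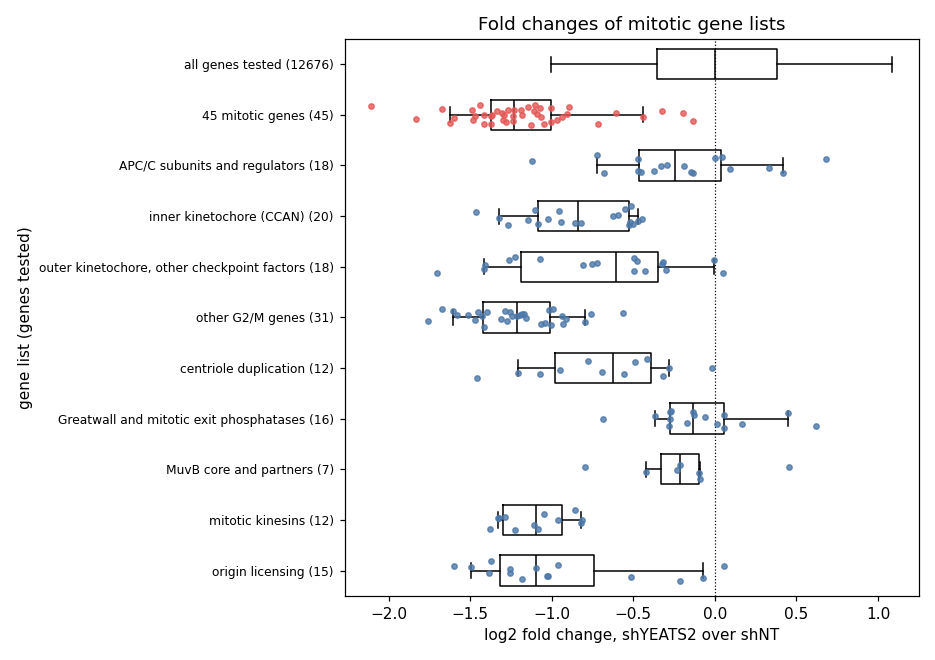
Log2 fold changes of shYEATS2 over shNT (horizontal axis) by gene list (vertical axis, number of genes in brackets), with 1 point per gene in the lists, boxes from the lower to the upper quartile with the median, and whiskers that span the middle 90% of genes. The medians of the 45 mitotic genes (-1.24) and of other G2/M genes (-1.21) lie left of those of APC/C (-0.24), the exit phosphatases (-0.13) and MuvB (-0.21).

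A list of mitotic motors and a list of replication genes, both chosen after the data had been seen, had medians not far from that of the 45. All 12 mitotic kinesins, the motors left out of the 45, were called lower, with a median of -1.10, led by KIFC1 (-1.38 ± 0.09) and KIF18B (-1.33 ± 0.13). Genes of origin licensing, a step before replication, were called lower in 9 of 15, also with a median of -1.10. MCM2 (-1.60 ± 0.28) and ORC1 (-1.50 ± 0.26) had the largest falls. The list also holds GMNN, geminin, which inhibits licensing and was among those called lower (-1.03 ± 0.14). Of the subunits of the origin recognition complex, ORC2 (-0.22), ORC3 (0.06) and ORC4 (-0.07) were near 0 and were not called. In the edgeR quasi-likelihood test the other uncalled genes of the list had larger falls, MCM6 (-1.19, adjusted p = 0.0139), MCM5 (-0.96, 0.0143) and ORC6 (-0.52, 0.0208). All of these uncalled genes were named after their values were seen. DESeq2 called 11 of the 15 lower and exactTest 12, beside 17.3% and 19.7% of all genes. The differences between the lists were not tested.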

How the data were processed

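mRNA was sequenced from 2 shNT and 2 shYEATS2 H1299 libraries. The authors aligned the reads to hg19 (the study's methods name the RNA-Seq unified mapper, the submitters' processing notes TopHat2 2.0.10), counted them per gene with HTSeq 0.6.1p1 and deposited the unscaled counts. The deposited table also holds fold changes, p-values and FDR of the authors' own comparison, which were not used. ChIP-seq samples were not analysed here. The library kit does not mark strand, so reads of overlapping genes cannot be told apart, and depth was 34718921 to 39417787 reads.

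A minimum of 10 reads in 2 or more libraries, which all 12676 genes met, was set, and genes were tested with edgeR 4.0.16 in R 4.3.3 (quasi-likelihood test, TMM scaling, no replicate block, Benjamini-Hochberg adjustment over all genes, threshold 0.01). Standard errors are the log2 fold change divided by the root of F, and the biological coefficient of variation was 0.107. In simulated data of 12676 genes for this comparison, 192 of 200 genes changed by 1 on the log2 scale were called, with 2 unchanged genes. DESeq2 called 168 of the 200. Every simulated gene had the same dispersion of 0.01 and no shift by replicate number was simulated, so these counts do not measure error rates in the real libraries. Alternatives were DESeq2 1.42.0, edgeR's exactTest (the study's own test), other scalings and filters, an adjusted p under 0.05, a replicate block and each library left out. Those fits leave 1 library in a group, which was assumed to vary like the other group.

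The 45 genes, the lists and the motifs were chosen with earlier results of these data known. All 45 are named, with values by library for the most counted, the most changed and the least changed gene of each role and for genes not called lower, and for the other lists the 2 largest falls and rises past the threshold. Gene positions and exon lengths come from GENCODE v44lift37 (GRCh37), to which 98.3% of genes matched, and promoters from RefSeq (GRCh38.p14), matched by symbol for 35 of the 45.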

Additional observations from a re-analysis of the deposited data

How the results depend on the processing

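Across 8 settings of test, scaling, filter and threshold and 4 fits with a library left out, the mitotic genes called lower numbered 39 to 42 and those called higher 0, and no result changed sign. Their median log2 fold change was -1.12 with total counts in place of TMM, and ranged from -1.27 to -1.13 with a library left out. Genes called lower and higher over the whole table numbered 2497 and 2596 with edgeR's exactTest and 3011 and 3093 at an adjusted p under 0.05. With a library left out they ranged from 850 to 2024 lower and from 775 to 1971 higher. With the replicate number as a block they were 2715 and 2742, and 42 mitotic genes were called lower, CKAP5 being the addition (adjusted p = 0.00211). The labels give no shared batch for libraries of the same number and there are only 2 pairs (correlation of their deviations 0.404), so the number was not treated as a pairing, and whether a library correlates best with its own number could not be read from 2 pairs. Calls were lost for CDC25C with total counts and for CDC25C or BUB3 with a library left out, and gained for CKAP5 with DESeq2, exactTest and the block. The cause was not tested. With the block, calls lower in the APC/C list were 7 and higher 2, in the phosphatase list 2 and 1, and in the MuvB list 2 and 1. With 2 libraries a group, the median standard error of a gene was 0.12 on the log2 scale, so changes the size of that in WEE1 were not detectable.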

Other observations

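The 7-base words AAGTTCA and CAAGTTC, which were picked in earlier work on these same fold changes in 3′ UTRs, were searched for in the GENCODE 3′ UTRs of 44 of the mitotic genes. They occurred in 4 (9.09%), against 17.7% of 11313 genes. The 4 were CDK1, BUB3, MAD2L1 and ECT2, with a median log2 fold change of -1.45 and all called lower, and the 40 without a word had a median of -1.21, with 36 called lower. These are descriptions, with no test.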
